A study of Homo sapiens with 9 samples.

Results

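TM4SF4 and 9 related genes for membrane proteins that cross the bilayer as 4 helices were followed in the ribosome profiles of Huh-7 cells treated with PF-06378503 (PF8503), PF-06446846 (PF846) or vehicle. The genes were 3 of the L6 family (TM4SF4, TM4SF1 and TM4SF5) and 7 tetraspanins (CD9, CD63, CD81, CD82, CD151, TSPAN3 and TSPAN6), taken by symbol from both deposited tables. Of these 10 genes, 8 had a row in both tables, out of 9221 genes in either table. CD9 and CD82 had no row in the tables and are not analysed here. The set was chosen by its log2 ratios with each compound, with that of TM4SF4 known, so the levels and log2 ratios below describe the set and were not tested.

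Huh-7 is an established human hepatocellular carcinoma line. The cells were exposed for 1 hr to 1.5 μM PF8503, to 1.5 μM PF846 or to 0.5% DMSO alone as vehicle, with 3 libraries labelled as biological replicates in each condition and 9 libraries in all. All libraries came from lysates made with cycloheximide, which holds elongating ribosomes in place. Each deposited table gives, for each transcript, the authors' mean over the vehicle libraries and over the libraries of 1 compound, in normalized counts (read counts divided by a size factor of the library). Because no value of a single library was used here, the depth of each library is unknown, no replicate error can be given, and no difference between conditions could be tested. The vehicle libraries are the same in both tables. The label descriptions place vehicle in sequencing lanes 1, 1 and 5, PF846 in lanes 2, 2 and 6 and PF8503 in lanes 4, 4 and 8, so that lane and condition cannot be told apart. Rows for all 10 hepatocyte markers checked were in both tables, against 1 of 10 markers of leukocytes, endothelial cells and fibroblasts (PECAM1). Of the hepatocyte markers, 1 was lower by at least 0.5 on the log2 scale with PF8503 (APOH, -0.80, counted over a shorter region) and 0 with PF846. Of all transcripts, 1.08% were lower by as much with PF8503 and 0.396% with PF846.

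PF8503 and PF846 belong to a class of compounds that bind in the exit tunnel of the ribosome and stall it on particular nascent chains, most often soon after the start of the protein. Tetraspanins and L6 proteins are made at the endoplasmic reticulum, where the first helix emerges from the ribosome early and serves as the signal that brings the ribosome to the membrane. Tetraspanins gather integrins, immunoglobulin-type proteins and sheddases into membrane microdomains. The L6 family has the same 4-helix layout but is a separate family. TM4SF4 is found mainly in intestine and liver, TM4SF1 is a surface antigen of many carcinomas, and TM4SF5 is known from liver fibrosis and hepatocellular carcinoma.

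The first 60 codons of the coding sequence are shown for the L6 genes and for 2 of the tetraspanins, because this is the part of the message where the nascent first helix enters the exit tunnel. Capitals mark the 19 codons of the most hydrophobic window within these codons (Kyte-Doolittle scale). The sequences are those of the GENCODE version 44 canonical transcripts on GRCh38, 5′ to 3′ on the coding strand.
TM4SF4: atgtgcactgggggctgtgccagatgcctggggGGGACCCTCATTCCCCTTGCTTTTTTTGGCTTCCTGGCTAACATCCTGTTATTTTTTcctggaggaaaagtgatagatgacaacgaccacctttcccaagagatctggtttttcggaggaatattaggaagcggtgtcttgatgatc
TM4SF1: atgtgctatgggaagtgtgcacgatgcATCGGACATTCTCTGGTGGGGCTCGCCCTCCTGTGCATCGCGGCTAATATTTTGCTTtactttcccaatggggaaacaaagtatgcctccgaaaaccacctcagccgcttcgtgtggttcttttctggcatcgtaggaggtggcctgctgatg
TM4SF5: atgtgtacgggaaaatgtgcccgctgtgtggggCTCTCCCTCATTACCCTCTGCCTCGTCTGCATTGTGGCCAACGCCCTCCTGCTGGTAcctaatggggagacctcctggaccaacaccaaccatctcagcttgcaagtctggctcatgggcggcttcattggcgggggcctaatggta
CD81: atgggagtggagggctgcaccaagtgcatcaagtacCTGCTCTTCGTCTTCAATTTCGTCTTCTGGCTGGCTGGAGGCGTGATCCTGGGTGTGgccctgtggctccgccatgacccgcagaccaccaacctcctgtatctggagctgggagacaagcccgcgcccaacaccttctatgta
CD63: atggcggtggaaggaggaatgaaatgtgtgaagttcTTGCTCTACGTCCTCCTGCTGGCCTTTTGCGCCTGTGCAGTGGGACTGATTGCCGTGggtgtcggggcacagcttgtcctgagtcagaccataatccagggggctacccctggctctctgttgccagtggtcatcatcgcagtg

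In TM4SF4 (ENSG00000169903, chromosome 3, 149474697 to 149503394, forward strand), most of the printed stretch is in exon 1, at chr3:149474878-149475051, and the rest opens exon 2 at chr3:149475823-149475828. TM4SF1 (ENSG00000169908) lies on the reverse strand of the same chromosome, 149369022 to 149377649, separated from TM4SF4 by 97047 bases, and TM4SF5 (ENSG00000142484) lies on chromosome 17, 4771886 to 4783211. Codon 60 is in exon 2 in each of the L6 genes, all of which have 5 exons. CD81 (chromosome 11, 2377310 to 2397397) and CD63 (chromosome 12, 55725323 to 55729009, reverse strand) carry the printed codons on chr11:2377550-2377615 and chr11:2390412-2390525, and on chr12:55728276-55728341 and chr12:55727226-55727339.

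TM4SF4 was the only one of the 8 measured genes that differed from vehicle by 0.5 or more on the log2 scale with either compound, and it did so with PF8503 alone. With PF8503 its authors' mean was 109.7 normalized counts against 468 with vehicle, which left 23.4% of the vehicle value and gave a log2 ratio of -2.09. With PF846 the authors' mean was 483 against 528, or 91.4% of vehicle, a log2 ratio of -0.13. A single transcript of the 9157 in the PF8503 table had a lower log2 ratio. Of the 8839 transcripts with PF846, 809 had a lower one. These ratios are those by which TM4SF4 was chosen.

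The share of all transcripts lower by at least 0.5 was 1.08% in the PF8503 table, and 0.24% were higher by as much. In the PF846 table the corresponding shares were 0.396% and 0.0792%. Among the 8 genes, 1 was lower and 0 were higher with PF8503, and 0 were lower and 0 higher with PF846. Since the rule that made the set used these ratios, the counts are given only as a description.

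The spread of transcripts with similar counts gives a scale for these values, although it is a spread over transcripts and not over replicates. Of the 3775 transcripts with a vehicle mean within 2-fold of that of TM4SF4 in the PF8503 table, the central 95% of log2 ratios lay between -0.27 and 0.23, and 0 were lower than TM4SF4. In the PF846 table the same range over 3591 transcripts was -0.18 to 0.15. The PF846 value of TM4SF4 was inside that range, with 246 of these transcripts below it. TM4SF4 was chosen by its PF8503 ratio, so its place outside the PF8503 range followed from that choice. That ratio was also counted over a shorter region than its PF846 ratio, as described below. Of the transcripts in both tables, 98.5% were counted over the same region, so most of the comparison transcripts differ from TM4SF4 in this.

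**Figure D1:**
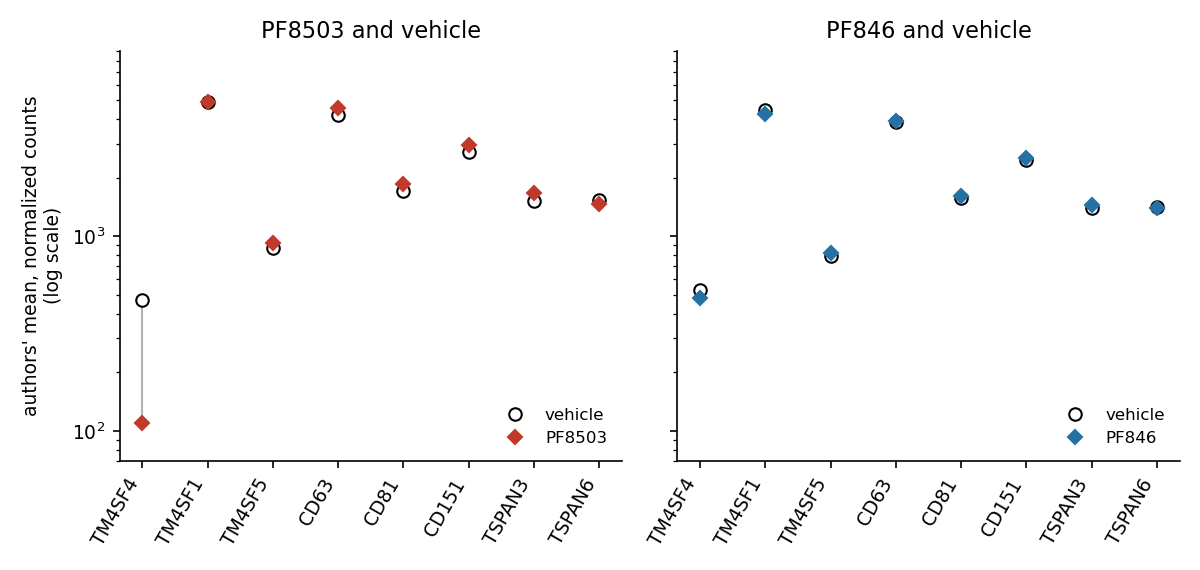
Authors' means in normalized counts (log axis) of the 8 genes with PF8503 and vehicle (left) and with PF846 and vehicle (right); open circles are vehicle, filled diamonds the compound, and grey lines join the pair. The means of TM4SF4 stood apart with PF8503 (468 and 109.7), whereas the 2 symbols nearly overlapped for the other genes in both panels.

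The L6 paralogs of TM4SF4 had similar means with and without either compound. TM4SF1, the gene of the set with the highest counts, had authors' means of 4878 with vehicle and 4931 with PF8503, a log2 ratio of 0.016. In the PF846 table its means were 4465 and 4279, a log2 ratio of -0.061. TM4SF5 had means of 869.5 and 929.5 in the PF8503 table, a log2 ratio of 0.096. In the PF846 table TM4SF5 had means of 796 and 820.2, a log2 ratio of 0.043. All 4 of these ratios were inside the central 95% range of transcripts with similar vehicle means, which for TM4SF5 was -0.25 to 0.21 with PF8503 and -0.16 to 0.14 with PF846. The large difference with PF8503 was therefore in 1 of the 3 measured L6 genes, and the other L6 genes considered, TM4SF18, TM4SF19 and TM4SF20, had no row in the tables.

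The log2 ratios of the 5 measured tetraspanins ran from -0.064 (TSPAN6) to 0.12 (TSPAN3) with PF8503. With PF846 their range was -0.0089 to 0.050, with the same genes at its ends. CD63, a protein of late endosomes and extracellular vesicles, had authors' means of 4222 with vehicle and 4550.3 with PF8503 (log2 ratio 0.11), and of 3865 and 3935 with PF846 (log2 ratio 0.026). CD81, a receptor for hepatitis C virus on hepatocytes, had means of 1716 and 1867 with PF8503 (log2 ratio 0.12), and of 1570.3 and 1606 with PF846 (log2 ratio 0.032). CD151, a partner of laminin-binding integrins, had means of 2701 and 2943 with PF8503 (log2 ratio 0.12), and of 2472 and 2536 with PF846 (log2 ratio 0.037). With PF8503 these 3 stood slightly above vehicle, by 7.77% for CD63, 8.83% for CD81 and 8.95% for CD151, and with PF846 by 1.81%, 2.25% and 2.58%.

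TSPAN3 had authors' means of 1528 and 1666 with PF8503, 9.02% above vehicle, and of 1398 and 1448 with PF846, 3.52% above vehicle. TSPAN6, on the X chromosome, was the tetraspanin with the lowest ratio with each compound, with means of 1539.9 and 1474 with PF8503 and of 1409.5 and 1401 with PF846. Its log2 ratios of -0.064 and -0.0089 were inside the ranges of transcripts of similar vehicle mean, which were -0.24 to 0.18 for PF8503 and -0.14 to 0.13 for PF846.

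Without TM4SF4, the median log2 ratio of the remaining 7 genes was 0.11 with PF8503, where the median of all transcripts was 0.013, and 0.032 with PF846, where it was 0.00086. With PF8503, 6 of the 7 were above 0, compared with 54.7% of all transcripts, and with PF846 5 of the 7, compared with 50.3%. TM4SF4 was left out with its value known, so these medians and counts are only a description. Other tetraspanins and other four-pass proteins, described below, also had medians above that of all transcripts with PF8503 (0.083 and 0.085). With PF846 their medians were 0.036 and -0.027. The percentiles of CD63, CD81, CD151 and TSPAN3 among all transcripts ran from 80.0 to 83.7 with PF8503 and from 62.2 to 72.3 with PF846. TM4SF1 and TSPAN6 stood at percentiles 51.2 and 25.3 with PF8503, and at 23.3 and 45.3 with PF846. The comparisons share their vehicle libraries, so the ratios of a gene with each compound are not independent.

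PF8503 and PF846 were used at the same dose for the same time, and their ratios are set side by side here. For TM4SF4 the ratios cover unequal regions, as described below, the PF8503 ratio being counted over the shorter region. Of the transcripts in both tables, 98.5% were counted over the same region, so the ranges below come mostly from like regions. The log2 ratio of TM4SF4 was lower with PF8503 than with PF846 by a difference of -1.96. Over the 8775 transcripts in both tables the central 95% of this difference lay between -0.30 and 0.27, and over the 3590 with a vehicle mean within 2-fold of TM4SF4 between -0.24 and 0.23. TM4SF4 had the lowest difference of all these transcripts, and was chosen for it. For the other 7 genes the differences ran from -0.055 (TSPAN6) to 0.090 (CD81), all of them inside the range of transcripts with similar vehicle means. No interval over libraries can be put on any of these differences, so the values do not show that the compounds act alike on these 7 genes.

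**Figure D2:**
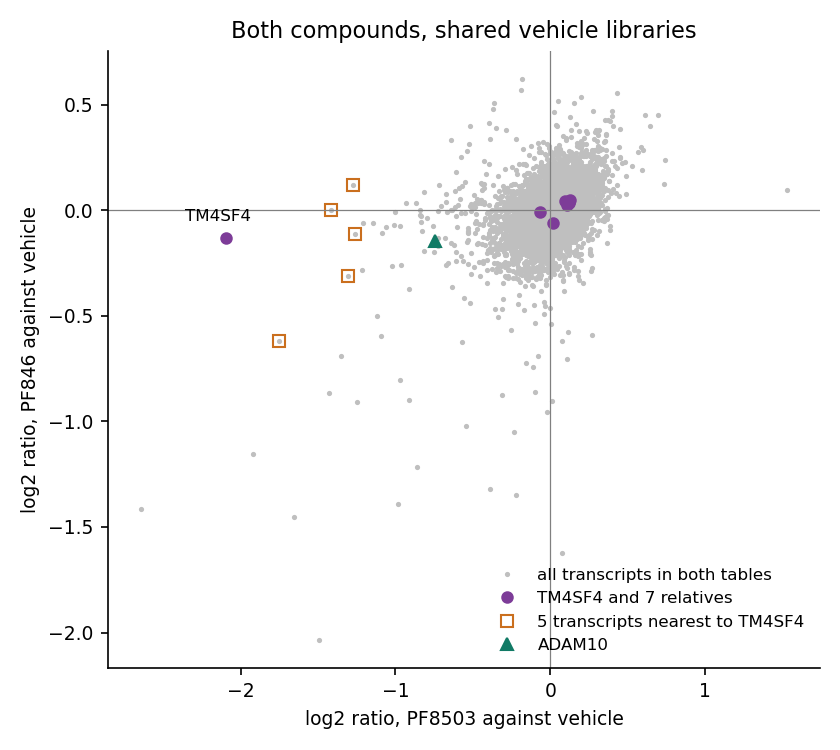
Log2 ratio to vehicle with PF8503 (horizontal axis) against that with PF846 (vertical axis) for the 8775 transcripts in both tables (grey), with TM4SF4 and 7 relatives (filled circles), the 5 transcripts nearest to TM4SF4 in this plane (open squares) and ADAM10 (triangle). TM4SF4 sits far to the left at -2.09 and close to 0 on the vertical axis, and its 7 relatives lie within the central cloud.

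The part of the TM4SF4 message that was counted was not the same for the compounds. The authors counted reads 3′ of DMax, the codon at which the cumulative read curves of treated and vehicle cells lie farthest apart, for transcripts whose DMax Z score was at least 2. In other transcripts they counted from 10 codons after the start. As the vehicle libraries are shared, a transcript's vehicle mean in the PF8503 table over that in the PF846 table takes a constant value, 1.09, wherever the same codons were counted. For TM4SF4 it was 0.886, so the region counted for PF8503 held 81.1% of the vehicle reads of the region counted for PF846. For the other 7 genes this share was 100% to 3 digits, that is, the same region in both tables. A different region was found for 1.53% of the transcripts in both tables, and 1 of the 8 genes was among them.

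The 18.9% of vehicle reads left out of the PF8503 value of TM4SF4 came from the 5′ side of the message if the region was set by DMax. On the scale of the PF846 table, the vehicle mean of TM4SF4 in the shorter region was 428 normalized counts and the PF8503 mean was 100.4. What PF8503 did to the reads in the stretch that was left out cannot be read from the tables, and the ratio over the longer region is therefore unknown. Were the vehicle reads spread evenly over the 184 codons from 10 codons after the start to 10 before the end, the share left out would correspond to 34.8 codons and the count would begin near codon 44.8. The position also assumes that the region counted for PF846 began 10 codons after the start. Reads are not spread evenly along messages, so this position is only a rough guide. On these assumptions it lies 3′ of the capitalized window of TM4SF4, which covers codons 12 to 30.

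Counting 3′ of DMax makes a ratio lower by construction where the deficit of reads defines DMax. All 92 transcripts counted over fewer codons for PF8503 than for PF846 were below 0 with PF8503, with a median log2 ratio of -0.58. TM4SF4 had the lowest ratio among these 92, and 53 of them retained a smaller share of their vehicle reads than it did. With PF846 the same transcripts had a median of -0.011, with the middle 50% between -0.097 and 0.051, and 16 were lower than TM4SF4.

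The 5 transcripts listed next lay nearest to TM4SF4 in their pair of log2 ratios, by Euclidean distance over the 2 compounds and among transcripts with vehicle means of at least 100. These were POGLUT1 (an O-glucosyltransferase of the Notch pathway, -1.75 with PF8503 and -0.62 with PF846), PRKAR2A (a regulatory subunit of protein kinase A, -1.42 and -0.0011), CTBS (the lysosomal enzyme chitobiase, -1.31 and -0.31), ACSF2 (an acyl-CoA synthetase, -1.26 and -0.11) and C14orf1 (-1.28 and 0.12). Their distances from TM4SF4 ran from 0.596 to 0.853 log2 units. The log2 ratios of all 5 with PF8503 were above that of TM4SF4, the lowest of them being -1.75. All 5 were counted over a shorter region in the PF8503 table, with 68.3% to 97.4% of the vehicle reads of the PF846 region. They were chosen for ratios near those of TM4SF4, and the counted region bears on the ratio. The shorter region is therefore not independent of the choice and is given as a description. Of their proteins only CTBS had an N-terminal window above 2 on the hydropathy scale, at 2.25, compared with 0.626 for PRKAR2A.

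All of these proteins have a hydrophobic N-terminus, which follows from the choice of families with 4 helices and is given as a description. The highest mean hydropathy of a 19-residue window within the first 60 residues was 2.05 in TM4SF4, 2.11 in TM4SF1, 2.73 in TM4SF5 and 2.8 in CD63, and the 8 measured genes ranged from 2.05 to 2.8. A window of at least 1.6, a common limit for a membrane helix, was present in 8 of the 8, as the choice of families fixes. TM4SF4 had the lowest value of the 8, which was at percentile 94.7 of the 9149 proteins that could be matched to the tables. Its window began at residue 12, as in TM4SF5 and TSPAN3, against residue 10 in TM4SF1, 13 in CD63 and CD81, 20 in TSPAN6 and 26 in CD151.

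Of the 1129 transcripts in the PF8503 table with a window of at least 1.6, 36 (3.19%) were lower by at least 0.5, against 60 of 7958 (0.754%) without one. With PF846 it was 15 of 1089 (1.38%) and 20 of 7684 (0.260%). Where the window was at least as hydrophobic as that of TM4SF4, 18 of 479 transcripts (3.76%) were lower with PF8503 and 11 of 458 (2.40%) with PF846. The share past this limit was thus higher with such a window than without one for each compound, and most transcripts of every group did not pass it. Of the 8 genes described here, all with such a window and chosen with their ratios known, 7 did not pass it with either compound. These shares include transcripts counted 3′ of DMax and were not tested.

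For each pair of the 3 measured L6 proteins, percent identity was higher within the first 60 residues than over the whole length. Each percentage came from its own alignment and left gaps out, and the differences were not tested. They were smaller for both pairs with TM4SF4 than for TM4SF1 with TM4SF5. TM4SF4 and TM4SF1, both of 202 residues, were identical at 50.3% of 199 aligned positions and at 52.5% of the 59 aligned within the first 60 residues. TM4SF4 and TM4SF5 (197 residues) were identical at 44.8% overall and 49.2% in the first 60 residues, and TM4SF1 and TM4SF5 at 47.2% and 58.3%. Against the measured tetraspanins its identity was 21.1% (CD151) to 31.4% (CD63) over the whole length. Tetraspanins carry a Cys-Cys-Gly motif in their large extracellular loop. The same 3 residues were counted here anywhere in the protein. They occurred 4 times in TM4SF4, 2 times in TM4SF1, TM4SF5, CD63 and CD81, and 1 time in CD151, TSPAN3 and TSPAN6. At least 1 occurrence was found in 2.07% of all matched proteins. Their position was not examined, so the counts do not show that the L6 proteins carry the tetraspanin motif.

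**Figure D3:**
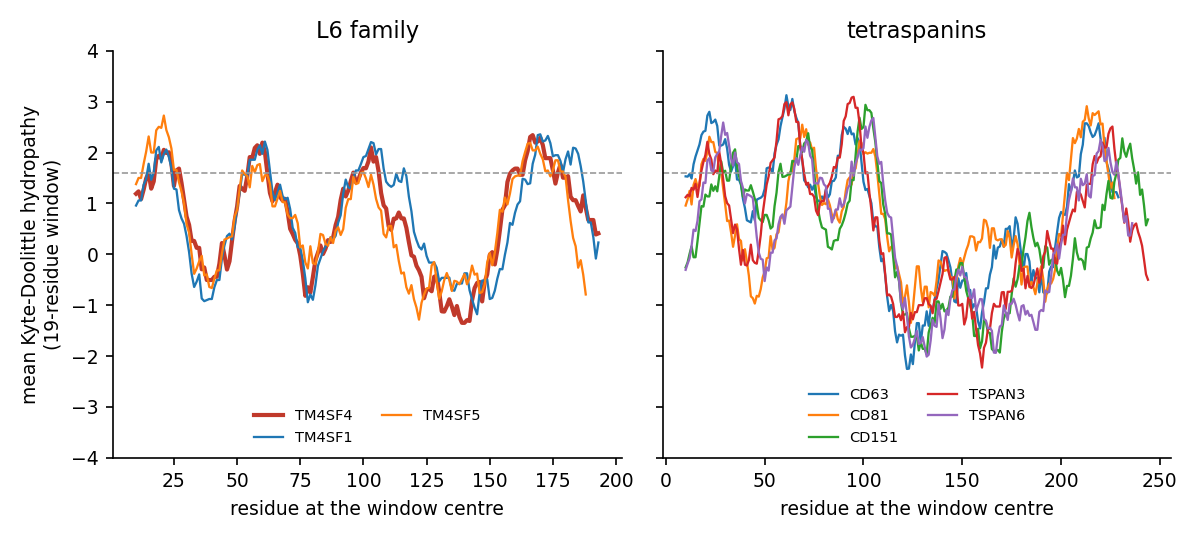
Mean Kyte-Doolittle hydropathy of 19-residue windows (vertical axis, unitless scale) by the residue at the window centre (horizontal axis) for the 3 L6 proteins (left, TM4SF4 as the thick red line) and the 5 measured tetraspanins (right); the dashed line is at 1.6. Each protein has 4 non-overlapping windows above the line, and the first peak is lowest in TM4SF4 (2.05) and highest in TM4SF5 (2.73) among the L6 proteins.

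The ribosome occupancy of the 8 genes in vehicle-treated cells differed 8.45-fold per codon. Dividing the authors' vehicle mean in the PF846 table by the codons of each coding sequence gave 22.0 normalized counts per codon for TM4SF1, 16.2 for CD63, 9.73 for CD151 and 6.63 for CD81. It gave 5.73 for TSPAN6, 5.51 for TSPAN3, 4.02 for TM4SF5 and 2.60 for TM4SF4. TM4SF4 was thus the least occupied of the 8 per codon, 8.45-fold below TM4SF1, yet above 78.3% of the 8773 transcripts with a length (median 0.795). All codons were divided by, although the means leave out reads near the start and end, or 5′ of DMax. Each value is therefore lower than a value per counted codon, more so where the coding sequence is short. TSPAN6 and TSPAN3 were close in this order, and without library values it cannot be said which neighbours differ beyond the spread of replicates. The tables hold no RNA-seq, so a level of footprints reflects the amount of message together with the ribosomes on it, and these cannot be told apart.

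Among the other genes of the 4-helix families and their partners, ADAM10 was the gene that passed a log2 ratio of 0.5. Of 26 other tetraspanin genes considered, 6 had a row in each table. Of the 6, 0 were lower and 0 higher by 0.5 with either compound. Of all transcripts, 1.08% were lower and 0.24% higher with PF8503, and 0.396% and 0.0792% with PF846. At these shares a count of 0 is common for so few genes and does not set the family apart. The median log2 ratio of the 6 was 0.083 with PF8503 and 0.036 with PF846. The 3 with the highest vehicle means were TSPAN8 (-0.086 with PF8503 and 0.043 with PF846), TSPAN13 (0.080 and 0.029) and TSPAN4 (0.12 and 0.085). At a limit of 0.25, 1 of the 6 was lower with PF846 (2.13% of all transcripts), namely TSPAN31 (-0.31 with PF846 and -0.15 with PF8503), which is named for its value.

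Proteins with 4 helices outside these families, such as claudins, connexins and MARVEL-domain proteins, had a row for 18 of 34 genes with PF8503 and for 17 with PF846. With either compound, 0 were lower or higher by 0.5. Of all transcripts, 1.08% were lower and 0.24% higher with PF8503, and 0.396% and 0.0792% with PF846, so counts of 0 are common for so few genes. The median of these genes was 0.085 with PF8503 and -0.027 with PF846. CLDN1, a tight junction protein and a further entry factor for hepatitis C virus, had log2 ratios of 0.16 with PF8503 and -0.048 with PF846. CMTM6, which stabilizes PD-L1, had -0.050 and -0.12, and SYPL1 had -0.032 and -0.038. At a limit of 0.25, 1 gene was higher with PF8503 (3.79% of all transcripts), the connexin gene GJB1 (0.37 with PF8503), which is named for its value.

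Among 25 partners of tetraspanins, 21 had a row in each table, with a median of -0.00041 with PF8503 and -0.014 with PF846. With PF8503, 1 of the 21 was lower by at least 0.5 (1.08% of all transcripts) and 0 were higher (0.24%). With PF846, 0 were lower (0.396%) and 0 higher (0.0792%). The gene lower with PF8503 was ADAM10, a sheddase whose exit from the endoplasmic reticulum is controlled by a subgroup of tetraspanins that includes TSPAN14. Its authors' means were 3529 with vehicle and 2105 with PF8503, a log2 ratio of -0.75, and 3231 and 2923 with PF846, a log2 ratio of -0.14. The region counted for ADAM10 was the same in both tables. TSPAN14 had log2 ratios of 0.086 with PF8503 and -0.0070 with PF846. The other partners with high vehicle means were BSG (0.098 with PF8503 and -0.018 with PF846) and the integrin gene ITGB1 (0.016 and 0.017). At a limit of 0.25, 1 partner was lower with PF846 (also against 2.13%), CD47 (-0.28), which is named for its value.

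**Figure D4:**
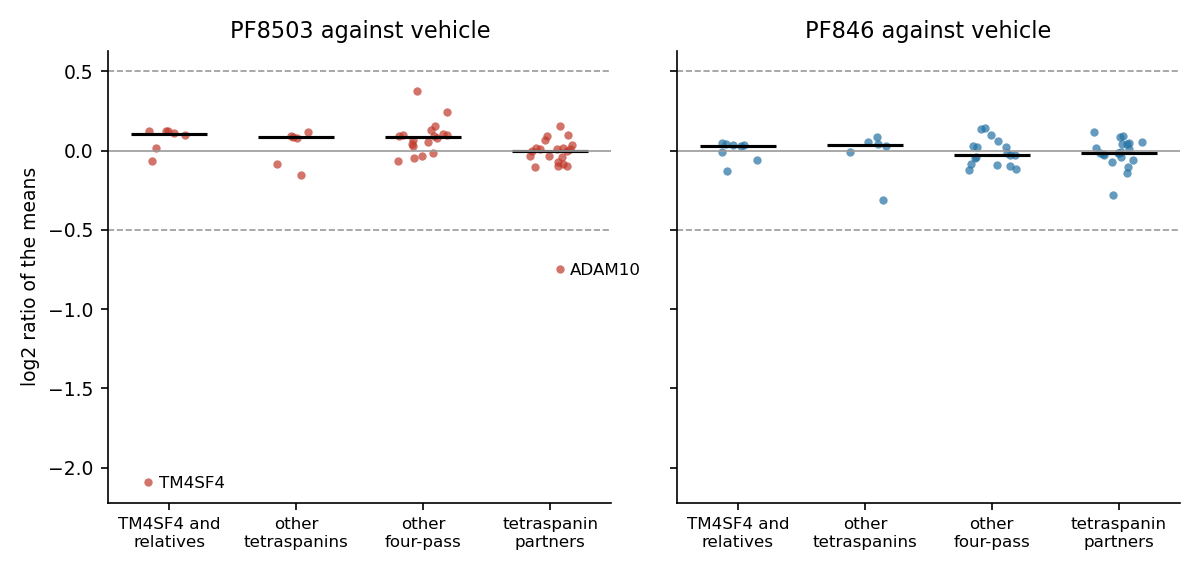
Log2 ratio of each measured gene (points) with PF8503 (left) and PF846 (right) for TM4SF4 and its 7 relatives, 6 other tetraspanins, other four-pass proteins and tetraspanin partners; black bars are medians and dashed lines mark -0.5 and 0.5. The points below -0.5 are TM4SF4 (-2.09) and ADAM10 (-0.75), both with PF8503.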

How the data were processed

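Ribosome-protected fragments of Huh-7 cells were sequenced from 9 libraries, 3 per condition. According to the paper's methods, the authors removed adapters and ribosomal RNA reads, aligned the rest with Bowtie to canonical coding transcripts (GENCODE version 24, GRCh38), retained reads with a single position, and summed reads 3′ of DMax (Z score of at least 2) or from 10 codons after the start, without the last 10 codons, requiring over 30 counts per transcript. Each signal value that the authors deposited is an average across the libraries of a condition, after scaling of the counts by DESeq size factors. The tables also hold the authors' fold changes and p-values for each compound, which were not used. Versions of Bowtie and DESeq are not given in the sources used here. Replicate numbers in the authors' script are not those of the labels, and the libraries behind each mean are therefore uncertain.

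The log2 ratio was computed here as the log2 of the compound mean over the vehicle mean for every transcript, with no pseudocount or filter, and a value of at least 0.5 in either direction was taken as a limit of size. No model could be fitted to means. A departure of over 0.002 (log2) from the median ratio of the vehicle means of both tables was read as a different counted region. This step and the log2 ratios were run on simulated data with known values. Both simulated tables reused the same vehicle means, so recovery of the shortened regions followed from that setup. The simulation held no choice of DMax, so it does not bear on ratios counted 3′ of DMax. The members, gene lists and limits were chosen with earlier results of these data known. The genes named were the 10 members, the 3 of each list with the highest vehicle mean, any past 0.5, and the 5 nearest to TM4SF4. Genes named beyond this rule were chosen after their values were seen.

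Coding sequences and lengths are those of GENCODE version 44 canonical transcripts (GRCh38), which may differ from the transcripts the authors used. Of 9221 symbols, 9149 (99.2%) were matched, 439 of them through an older symbol listed by RefSeq. Identities come from global alignment (BLOSUM62) of the translated sequences. Alternatives were other scalings, pseudocounts, limits, a minimum mean and other tolerances. Python 3.11.15, numpy 2.4.6, pandas 2.3.3, matplotlib 3.10.9 and biopython 1.88 were used.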

Additional observations from a re-analysis of the deposited data

How the results depend on the processing

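Of 140 alternative values computed for 46 results, 135 were on the same side of the limit of 0.5 and within 0.1 (log2 values) or 1.5-fold (counts) of the value reported, 5 moved and 0 reversed. Many alternatives could shift a value only slightly, centring for example by 0.013 with PF8503 and 0.00086 with PF846. The region set by DMax could not be varied, so the count of 135 does not bear on it. The log2 ratio of TM4SF4 with PF8503 ran from -2.11 (centred on the table median) to -2.0 (pseudocount of 10), and that with PF846 was -0.13 in each case. The difference between the compounds for TM4SF4 was -2.26 when the compound means were compared with the constant table ratio alone, which sets counts of unequal regions against each other. The reported difference of -1.96 also sets ratios over unequal regions against each other. At a limit of 0.25, the counts became 1 for four-pass proteins higher with PF8503, 1 for other tetraspanins lower with PF846 and 1 for partners lower with PF846, from 0 in each case. At a limit of 1 the count of partners lower with PF8503 became 0, from 1. No paired analysis was possible because the tables hold means over libraries, and for the same reason no replicate could be left out. Replicate spread, and whether 1 library sets the value of TM4SF4, cannot be read from these tables.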
